A study of Homo sapiens with 8 samples.

Results

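DNA is copied by 3 replicative polymerases, and this report describes the mRNA of 10 genes that encode their subunits: POLA1, POLA2, PRIM1 and PRIM2 of polymerase alpha and its primase, POLD1, POLD2 and POLD3 of polymerase delta, and POLE, POLE2 and POLE3 of polymerase epsilon. The genes were chosen by name from the 38148 genes of the deposited table, and each had 1 row in it. HT29 cells come from a human colorectal carcinoma. Selumetinib blocks the kinase MEK, which lies directly above ERK in the growth factor pathway. The cells were either untreated or kept with 1 µM selumetinib for 24 h. All samples were fixed with glyoxal, stained with an antibody to cyclin B1 (CCNB1), a protein that accumulates in G2 phase, and sorted into a CCNB1-negative and a CCNB1-positive fraction before poly(A) RNA was sequenced. The 4 groups were untreated CCNB1-negative, untreated CCNB1-positive, selumetinib CCNB1-negative and selumetinib CCNB1-positive cells, with 2 libraries each. All of them are from 1 cell line, and a CCNB1-negative gate can hold cells of any phase in which the protein is low. The labels do not say whether replicates came from separate cultures, so p-values measure the spread between these libraries, which may be technical.

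The labels of all 8 libraries contradict themselves. The title of a library names the other treatment and the other fraction than its description does, and the growth medium entry sides with the title on treatment. Groups were taken from the descriptions, which are also the names of the table's columns. If the titles were right, each response to selumetinib given below would belong to the other fraction with its sign turned, each difference between fractions would belong to the other treatment with its sign turned, and the contrast of the 2 responses would not move. CCNB1 mRNA, with groups taken from the descriptions, had log2 values of 11.66 and 12.01 in untreated CCNB1-negative, 13.79 and 14.05 in untreated CCNB1-positive, 7.92 and 7.22 in selumetinib CCNB1-negative, and 12.76 and 12.53 in selumetinib CCNB1-positive libraries. It was thus higher in the fraction that the descriptions call positive in both treatments. Of 11 known MEK and ERK output genes, 10 were lower and 1, EGR1, was higher in the libraries that the descriptions call selumetinib, in each fraction.

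Values are log2 reads per gene, with each library scaled to the largest, so that 1 unit is a 2-fold difference. The libraries held between 12696860 and 23916160 reads on genes, and the selumetinib CCNB1-negative libraries were the shallowest. Mitochondrial transcripts took 4.44% to 7.80% of reads in untreated and 11.9% to 14.8% in selumetinib libraries, and the nuclear RNA MALAT1 took 0.303% to 0.386% and 2.01% to 4.42%. Their part in the results below was not tested. All 8 epithelial markers had reads in every library, with a summed level of 5844 to 11730 RPM (reads scaled to library size). Of 8 markers of blood and mesenchymal cells, LYZ and COL1A1 passed the filter on low values, and LYZ made up most of their sum.

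Polymerase alpha and primase start each new strand: PRIM1 makes a short RNA primer with the help of PRIM2, and POLA1 extends it with DNA, held by POLA2. Polymerase epsilon extends the leading strand and polymerase delta the lagging strand, where it completes the Okazaki fragments. Genes of these enzymes are known to be transcribed most strongly around the entry into S phase, and E2F factors are among their known regulators.

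Promoters are shown for the members whose window, as given by RefSeq on GRCh38.p14 from 250 bases before to 50 bases after the start of the gene, held a word of the E2F type upstream of the start. The words searched, on both strands, were TTTCCCGC, TTTGGCGC, TTTCGCGC and TTTGCCGC. The 13 windows at hand belonged to 9 members, POLD3 having none, and 4 members held such a word, against 3.30% of the 34796 windows of all genes. These 4 were POLA1, POLA2, POLE and POLE2, and in POLE2 the word spanned the start itself. Capitals mark the E2F word and any CCAAT on either strand, the word that NF-Y binds. The stretches are POLA1 at chrX:24693681-24693794 on the plus strand, POLA2 at chr11:65261809-65261922 on the plus strand and POLE at chr12:132687347-132687460 on the minus strand.
POLA1: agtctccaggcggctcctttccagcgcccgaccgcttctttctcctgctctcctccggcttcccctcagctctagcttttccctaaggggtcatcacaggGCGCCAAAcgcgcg
POLA2: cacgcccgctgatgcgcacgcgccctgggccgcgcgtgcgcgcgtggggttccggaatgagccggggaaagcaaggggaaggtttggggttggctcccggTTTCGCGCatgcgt
POLE: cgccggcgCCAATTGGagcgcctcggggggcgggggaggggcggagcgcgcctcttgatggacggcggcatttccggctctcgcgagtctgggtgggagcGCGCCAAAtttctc
The POLA1 and POLE words are the same 8 letters, GCGCCAAA, which are TTTGGCGC read on the other strand. In POLE the letters CCAATTGG hold CCAAT once on each strand. CCAAT stood in the windows of 4 members (POLA1, PRIM1, POLD2 and POLE) and in 34.6% of all windows. The GC box GGGCGG stood in those of 6 members, with a background of 44.9%. TTTGAA stood in that of POLE3, with a background of 15.2%. Members were counted by gene, with a match in any window of the gene sufficing, while each background is a share of single windows. Counts and backgrounds are thus in unlike units. A match is a description of these letters only.

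Levels between genes were compared as scaled reads per kilobase of exon. In untreated CCNB1-negative cells POLD2, the accessory subunit that holds polymerase delta together, had the highest level of the set, with 2798 and 3288 scaled reads per kilobase. POLE3, a histone-fold subunit of polymerase epsilon, followed with 1233 and 1255, and POLD1, the catalytic subunit of polymerase delta, with 799 and 874. The catalytic subunits POLE, with 344 and 446, and POLA1, with 172 and 181, were low in the order. The 2 libraries of POLD3 lay within those of PRIM1, whose libraries also overlapped with those of POLE, so these neighbours did not differ beyond their spread. The other neighbours among the members did not overlap in this group. In selumetinib CCNB1-negative cells POLA1, with 65.2 and 77.2, and PRIM1, with 69.5 and 72.7, overlapped at the lowest place, and PRIM2 overlapped with POLD1 and with POLD3.

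Selumetinib lowered the mRNA of all 10 genes in CCNB1-negative cells. Among the 14219 genes tested with limma, 35.8% fell in this comparison. The median log2 change of the members was -2.11, and that of all genes tested was 0.05. Of the 10 genes, 9 fell by more than 2-fold, which 21% of all genes did, and PRIM2 was the exception. No selumetinib CCNB1-negative library of any member reached the level of an untreated CCNB1-negative one, with a background of 41.9% of genes for this order of libraries. Cell cycle markers moved in the same comparison. Genes of G1/S summed to 693 to 728 RPM in untreated and 76.1 to 86.5 in selumetinib CCNB1-negative libraries, and G2 and M genes to 1085 to 1300 and 119 to 163. All 10 of the G1/S genes and all 12 of the G2 and M genes fell. Their part in the result was not tested, and in bulk samples fewer cells of a type and less RNA per cell cannot be told apart.

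**Figure D1:**
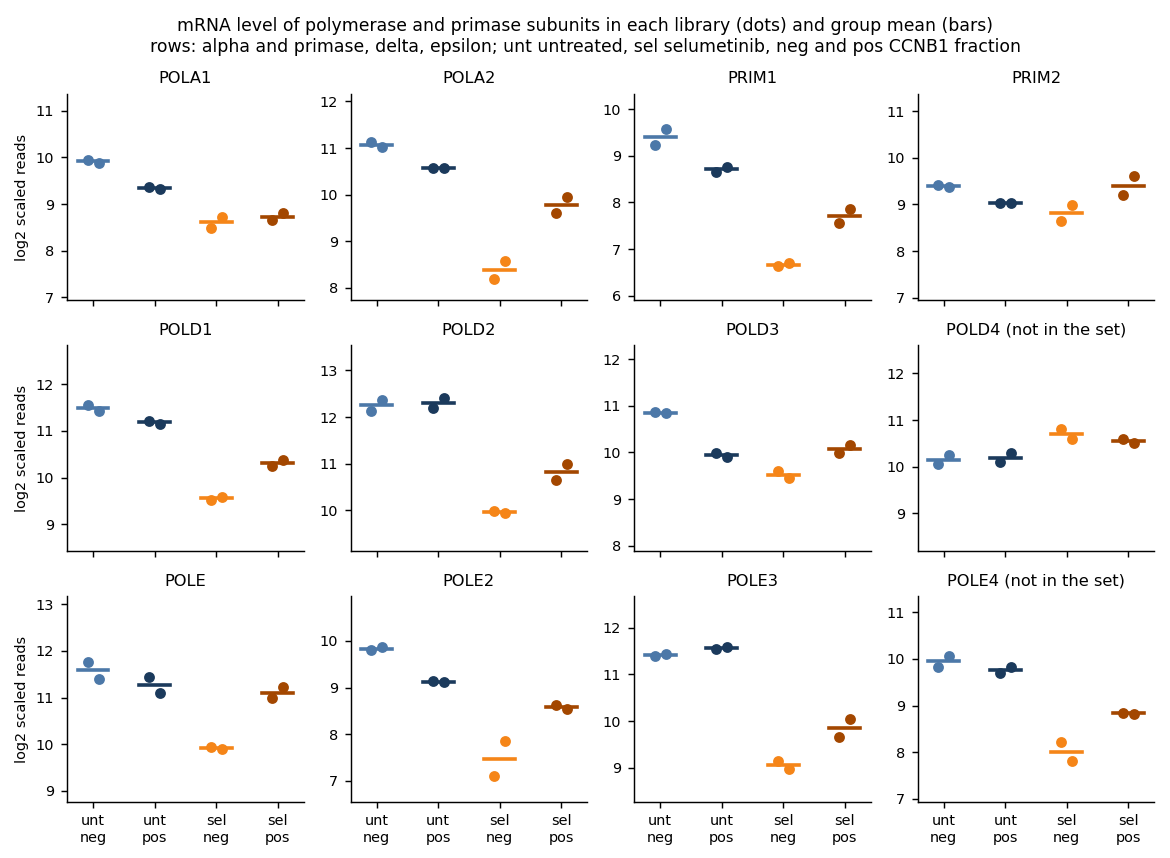
Log2 scaled reads (vertical axis, of equal length in each panel) of each gene in the 8 libraries, with dots for libraries and bars for the mean of a group. Every selumetinib CCNB1-negative library of the 10 members lies under both untreated CCNB1-negative ones, with the smallest step in PRIM2, while POLD4 lies above them.

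Within polymerase alpha and primase, the catalytic subunit POLA1 (ENSG00000101868, chrX:24693919-24996986) had log2 values of 9.95 and 9.88 in untreated CCNB1-negative, 9.38 and 9.33 in untreated CCNB1-positive, 8.48 and 8.73 in selumetinib CCNB1-negative, and 8.66 and 8.81 in selumetinib CCNB1-positive libraries. The untreated libraries were all above the selumetinib ones, and the selumetinib fractions overlapped. POLA1 fell by 1.31 ± 0.16 (SE, n = 2 libraries a group) in CCNB1-negative cells, to 40.3% of the untreated level (limma, adjusted p = 5.34e-06).

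POLA2 (ENSG00000014138, chr11:65261920-65305589), the accessory subunit of the polymerase, gave 11.13 and 11.02 in untreated CCNB1-negative, 10.58 and 10.57 in untreated CCNB1-positive, 8.20 and 8.57 in selumetinib CCNB1-negative, and 9.62 and 9.94 in selumetinib CCNB1-positive libraries. The 4 groups did not overlap. The fall in CCNB1-negative cells was 2.69 ± 0.17 on the log2 scale (SE), to 15.5% of the untreated level (limma, adjusted p = 1.38e-08).

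PRIM1 (ENSG00000198056, chr12:56731580-56752373), which synthesises the RNA primer, gave 9.22 and 9.58, 8.65 and 8.77, 6.63 and 6.69, and 7.55 and 7.85 in the same order of groups. Its groups did not overlap either. PRIM1 fell by 2.74 ± 0.20 (SE) in CCNB1-negative cells, to 15.0% of the untreated level (limma, adjusted p = 4.86e-08). Its fall and that of POLA2 were not apart: without untreated CCNB1-negative replicate 2 they were 2.56 and 2.74, in the other order. It also had the fewest reads of the set, 61 in selumetinib CCNB1-negative replicate 2, for which the 95% Poisson interval of 46.7 to 78.4 covers counting error only. Exons of NACA and ENSG00000285625 on the same strand, and of HSD17B6 on the other, overlap those of PRIM1. How such reads were divided between the genes is not given in the sources used here.

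PRIM2 (ENSG00000146143, chr6:57314805-57646850), the primase subunit that hands the primer on to the polymerase, gave 9.43 and 9.37 in untreated CCNB1-negative, 9.04 and 9.03 in untreated CCNB1-positive, 8.64 and 8.98 in selumetinib CCNB1-negative, and 9.20 and 9.61 in selumetinib CCNB1-positive libraries. Selumetinib CCNB1-negative cells were the lowest group, and the selumetinib CCNB1-positive libraries lay on either side of the untreated CCNB1-negative ones. PRIM2 fell by 0.59 ± 0.18 (SE), to 66.6% of the untreated level (limma, adjusted p = 0.00957). Without selumetinib CCNB1-negative replicate 1 the log2 change was -0.42 (limma, adjusted p = 0.0761), so this call rested on 1 library. The annotation holds a pseudogene copy of PRIM2, so that its values are uncertain where reads could be split between the copies.

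In polymerase delta, the catalytic subunit POLD1 (ENSG00000062822, chr19:50384204-50418018) gave 11.55 and 11.42 in untreated CCNB1-negative, 11.22 and 11.15 in untreated CCNB1-positive, 9.51 and 9.59 in selumetinib CCNB1-negative, and 10.26 and 10.37 in selumetinib CCNB1-positive libraries. No groups overlapped. In CCNB1-negative cells POLD1 fell by 1.94 ± 0.14 (SE), to 26.2% (limma, adjusted p = 4.23e-08).

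POLD2 (ENSG00000106628, chr7:44114681-44124358) gave 12.14 and 12.37 in untreated CCNB1-negative, 12.19 and 12.40 in untreated CCNB1-positive, 9.99 and 9.95 in selumetinib CCNB1-negative, and 10.66 and 11.00 in selumetinib CCNB1-positive libraries. The untreated fractions overlapped, and each selumetinib group was apart from them. POLD2 fell by 2.28 ± 0.16 (SE) in CCNB1-negative cells, to 20.5% (limma, adjusted p = 3.46e-08).

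POLD3 (ENSG00000077514, chr11:74493851-74669117), which binds the sliding clamp PCNA, gave 10.86 and 10.84 in untreated CCNB1-negative, 9.98 and 9.89 in untreated CCNB1-positive, 9.59 and 9.45 in selumetinib CCNB1-negative, and 9.995 and 10.16 in selumetinib CCNB1-positive libraries. Untreated CCNB1-negative cells stood above the other 3 groups. The fall in CCNB1-negative cells was 1.33 ± 0.14 on the log2 scale (SE), to 39.8% (limma, adjusted p = 1.72e-06).

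Among the genes of polymerase epsilon, the catalytic subunit POLE (ENSG00000177084, chr12:132623753-132687365) gave 11.77 and 11.39 in untreated CCNB1-negative, 11.44 and 11.09 in untreated CCNB1-positive, 9.95 and 9.89 in selumetinib CCNB1-negative, and 10.98 and 11.23 in selumetinib CCNB1-positive libraries. Selumetinib CCNB1-negative cells stood apart, and the other groups overlapped with a neighbour. POLE fell there by 1.66 ± 0.17 (SE), to 31.6% of the untreated level (limma, adjusted p = 1.08e-06).

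POLE2 (ENSG00000100479, chr14:49643555-49688422), the second-largest subunit, gave 9.81 and 9.86 in untreated CCNB1-negative, 9.14 and 9.11 in untreated CCNB1-positive, 7.09 and 7.86 in selumetinib CCNB1-negative, and 8.62 and 8.53 in selumetinib CCNB1-positive libraries. Its selumetinib CCNB1-negative libraries, with 87 reads in replicate 1, differed by 0.77, the largest gap between replicates in the set. All 4 groups were still apart. POLE2 fell by 2.36 ± 0.22 (SE), to 19.5% (limma, adjusted p = 3.68e-07).

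POLE3 (ENSG00000148229, chr9:113407235-113410675) gave 11.40 and 11.43 in untreated CCNB1-negative, 11.55 and 11.58 in untreated CCNB1-positive, 9.14 and 8.97 in selumetinib CCNB1-negative, and 9.66 and 10.05 in selumetinib CCNB1-positive libraries. Both selumetinib groups lay more than 1 unit below both untreated ones. POLE3 fell by 2.36 ± 0.16 (SE), to 19.5% (limma, adjusted p = 2.31e-08). Exons of C9orf43 overlap POLE3 on the other strand. Exons on the same strand overlap POLA2 (ENSG00000285816), POLD1 (ENSG00000142539) and POLD3 (LIPT2-AS1). Those of ENSG00000287917 overlap POLA2 on the other strand. The limit on shared reads given for PRIM1 holds for these genes too. The members with an upstream or start-spanning E2F word fell by 1.31 to 2.69 on the log2 scale, and those without one in their window by 0.59 to 2.74.

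In CCNB1-positive cells selumetinib lowered 7 of the 10 genes and raised 0, with 0 rises also at an unadjusted p under 0.05, and 27.3% of all genes fell and 38% rose. The median change of the members was -0.71, and that of all genes was 0.17. The latter was the median most moved by the scaling, by -0.24 with quantile normalization, so that the median of the members relative to that of all genes was -0.87 with the scaling of the authors and -0.71 with quantiles. Only POLE3, POLD2 and PRIM1 fell by more than 2-fold, as 9.85% of all genes did. Of the markers, 8 of 10 G1/S genes and 11 of 12 G2 and M genes fell, and 1 G1/S gene, E2F2, rose by 1.41. Their part in the result was not tested.

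POLE3 fell by 1.70 ± 0.16 (SE) in CCNB1-positive cells, to 30.7% of the untreated level (limma, adjusted p = 1.25e-06). POLD2 fell by 1.47 ± 0.16, to 36.1% (limma, adjusted p = 4.39e-06). Both are accessory subunits. PRIM1 fell by 1.01 ± 0.20, to 49.8% (limma, adjusted p = 0.000592). Smaller decreases were those of POLD1 by 0.87 ± 0.14 (limma, adjusted p = 0.000104), POLA2 by 0.79 ± 0.17 (0.0010) and POLA1 by 0.62 ± 0.16 (0.00380). POLE2 fell by 0.55 ± 0.22 (limma, adjusted p = 0.0374), a call that was lost without any 1 of the 4 CCNB1-positive libraries, with changes of -0.51 to -0.59 and adjusted p of 0.0818 to 0.133. Catalytic and accessory subunits were thus found among the genes that fell.

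For 3 members no change was detected in CCNB1-positive cells. The log2 change of POLE was -0.16, with a 95% interval of -0.53 to 0.20, and turned to 0.0012 with quantile normalization and to 0.011 without untreated CCNB1-positive replicate 1. POLD3 stood at 0.14 (-0.17 to 0.45) and PRIM2 at 0.37 (-0.02 to 0.76; limma, adjusted p = 0.0886). The PRIM2 value passed the threshold upwards with limma-voom on recovered reads, at 0.47 (adjusted p = 0.0302), and without selumetinib CCNB1-positive replicate 1, at 0.57 (adjusted p = 0.0371). These intervals leave out a fall of 2-fold, which is a log2 change of -1, for each of the 3 genes.

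**Figure D2:**
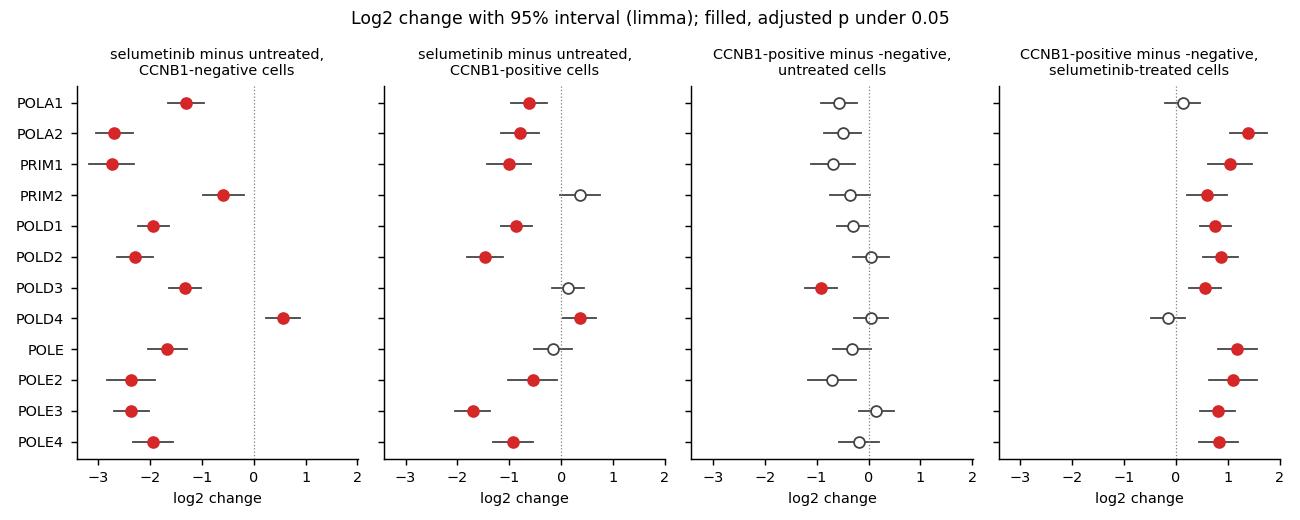
Log2 change (horizontal axis) of each gene in 4 comparisons, with points for the limma estimate, lines for the 95% interval and filled points where the adjusted p was under 0.05. All 10 members are filled and negative for selumetinib in CCNB1-negative cells and 7 are in CCNB1-positive cells. Between fractions, POLD3 alone of the genes drawn is filled in untreated cells, and 9 members are filled and positive in selumetinib-treated cells.

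The 2 responses were compared with each other through the interaction term of the same model, which is the change in CCNB1-positive minus that in CCNB1-negative cells. It was positive for all 10 genes and passed the threshold for 7, while 4.99% of all genes passed in this direction. The median over the members was 1.27, and that over all genes 0.11. The difference was 1.90 ± 0.24 (SE) for POLA2 (limma, adjusted p = 0.000134), 1.81 ± 0.31 for POLE2 (0.00203), 1.73 ± 0.28 for PRIM1 (0.00142) and 1.50 ± 0.24 for POLE (0.00134). POLD3 followed with 1.47 ± 0.20 (limma, adjusted p = 0.000336) and POLD1 with 1.07 ± 0.20 (0.00386). Each enzyme had members in this group.

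PRIM2 passed narrowly, at 0.95 ± 0.26 (SE; limma, adjusted p = 0.0459). It did not pass with quantile normalization at 0.84 (adjusted p = 0.0875), with median scaling at 0.82 (adjusted p = 0.102), with limma-voom at 0.91 (adjusted p = 0.0582), without a filter on low values (adjusted p = 0.0571), or without any 1 library other than selumetinib CCNB1-negative replicate 2 and selumetinib CCNB1-positive replicate 1, with values of 0.75 to 0.99. The difference was not detected for POLD2, at 0.81 with a 95% interval of 0.33 to 1.30 before adjustment (limma, adjusted p = 0.0534), for POLA1, at 0.69 (0.20 to 1.18; adjusted p = 0.106), or for POLE3, at 0.66 (0.18 to 1.13; adjusted p = 0.116). POLD2 passed with quantile normalization, at 0.83 (adjusted p = 0.0373), with a filter of 10 RPM (0.0491), and without untreated CCNB1-negative replicate 1 (0.0482), selumetinib CCNB1-negative replicate 1 (0.0457) or selumetinib CCNB1-positive replicate 1 (0.0412). With the replicate number as a block POLD2 passed, where 5.72% of all genes passed in this direction. With the pair of same-numbered fractions as a block POLA1, POLD2 and POLE3 all passed, as did 19.3% of all genes. POLD2 and POLE3 were also the members that fell most in CCNB1-positive cells.

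**Figure D3:**
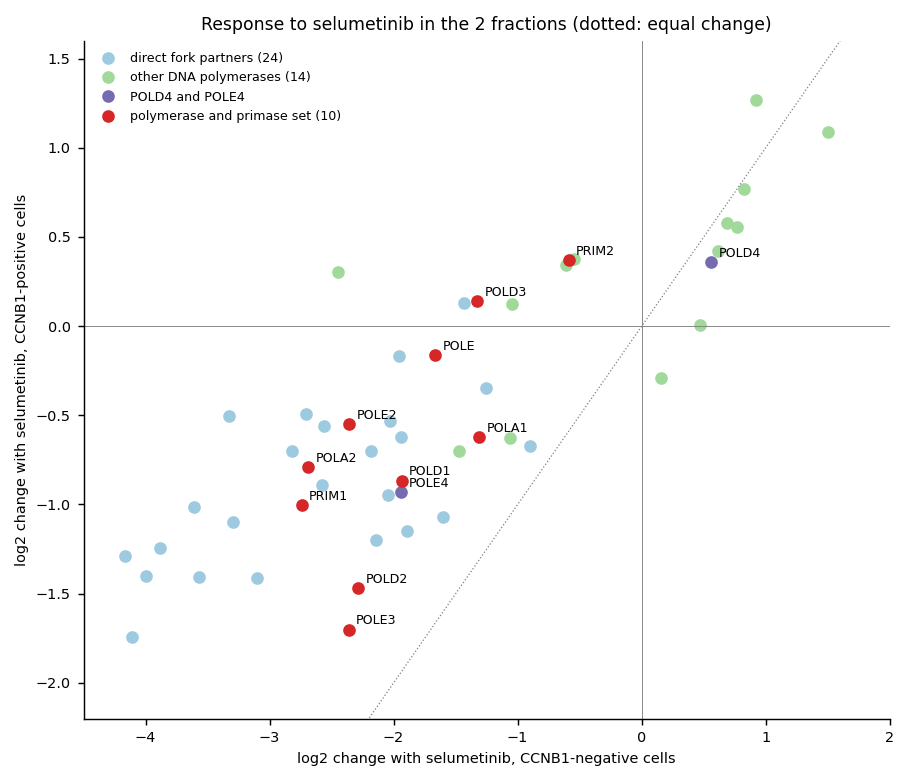
Log2 change with selumetinib in CCNB1-negative (horizontal) and CCNB1-positive cells (vertical), each point a gene, with the dotted line where both are equal. All 10 members (red) lie above the line and left of 0, most of them among the direct fork partners (blue). PRIM2, at -0.59 and 0.37, lies to the right of and above all fork partners. POLD3, at 0.14 on the vertical axis, lies just above them. Of the 14 other DNA polymerases (green), 8 lie right of 0.

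Between the fractions of untreated cells, POLD3 alone passed the threshold in the model without a replicate block. It was lower in CCNB1-positive cells by a log2 difference of -0.91 ± 0.14 (SE; limma, adjusted p = 0.00201), at 53.2% of the CCNB1-negative level, and 1.51% of all genes were lower by this test. The differences of the other members ran from -0.71 ± 0.22 for POLE2 (adjusted p = 0.115) to 0.15 ± 0.16 for POLE3 (adjusted p = 0.793). Among the 7 members whose CCNB1-positive libraries both lay below both CCNB1-negative ones were all 4 genes of polymerase alpha and primase, and 28% of all genes had this order. The member median was -0.43, and that of all genes was -0.06. POLE2 passed in a model of the 2 groups alone (adjusted p = 0.0278), with limma-voom (0.0327) and without selumetinib CCNB1-negative replicate 1 (0.0183) or 2 (0.0202). PRIM1 passed with limma-voom as well (0.0373), and with the replicate number as a block, where 1.92% of all genes were lower. With the pair of same-numbered fractions as a block, 7 members passed besides POLD3, and 8.78% of all genes were lower. These were POLA1, POLA2, PRIM1, PRIM2, POLD1, POLE and POLE2. The labels do not say that such libraries are paired. For POLD2 the difference of 0.05 ± 0.16 had no stable sign. In the same comparison all 12 G2 and M genes were higher and 7 of 10 G1/S genes lower in CCNB1-positive cells, with G1/S sums of 693 to 728 and 292 to 308 RPM, and their part in the differences was not tested.

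In selumetinib-treated cells 9 of the 10 genes were higher in CCNB1-positive than in CCNB1-negative cells, as were 13.8% of all genes. The member median was 0.83, against 0.02 for all genes. Of the 9, 4 were higher by more than 2-fold, which 4.92% of all genes were. POLA2 was higher by 1.40 ± 0.17 (SE; limma, adjusted p = 4.56e-05), POLE by 1.19 ± 0.17 (0.000266), POLE2 by 1.10 ± 0.22 (0.00309) and PRIM1 by 1.04 ± 0.20 (0.00248). POLD2 was higher by 0.86, POLE3 by 0.81 and POLD1 by 0.76 (limma, adjusted p between 0.00174 and 0.00286).

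POLD3, lower in CCNB1-positive cells without the drug, was here higher in them by 0.56 ± 0.14 (SE; limma, adjusted p = 0.0151). This call was lost without selumetinib CCNB1-negative replicate 2 (adjusted p = 0.0869) and without selumetinib CCNB1-positive replicate 1 (0.0513) or 2 (0.117). PRIM2 was higher by 0.59 ± 0.18 (limma, adjusted p = 0.0324), which was lost with quantile normalization (0.0552), with median scaling (0.0680), in a model of the 2 groups alone (0.0532), and without selumetinib CCNB1-negative replicate 1 (0.124) or selumetinib CCNB1-positive replicate 2 (0.255). POLA1 showed no detectable difference, at 0.13 with a 95% interval of -0.22 to 0.47 (limma, adjusted p = 0.593). Summed G1/S genes stood at 76.1 to 86.5 RPM in CCNB1-negative and 159 to 169 in CCNB1-positive libraries of treated cells, and G2 and M genes at 119 to 163 and 3804 to 3912. What these markers contribute to the differences was not tested.

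The subunits of an enzyme did not fall by like amounts, which moved their shares of the summed level per kilobase. These shares are a description of mRNA and carry no test. In polymerase alpha and primase, PRIM2 made up 18.1% to 19.5% of the sum in untreated CCNB1-negative libraries and 44.3% to 46.0% in selumetinib CCNB1-negative ones. POLA2 held 37.0% to 41.2% in the former libraries and 21.2% to 22.5% in the latter. The share of POLA1 averaged 11.3% and 16.5%. The sum itself fell to 27.9% of the untreated level in CCNB1-negative cells and to 72.1% in the CCNB1-positive fraction. PRIM2 thus changed from the third to the first place within its enzyme, with the limit on its values given above.

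In polymerase delta, POLD4, a small accessory subunit outside the set, averaged 13.3% of the sum in untreated CCNB1-negative and 48.9% in selumetinib CCNB1-negative cells, and 14.5% and 33.2% in the CCNB1-positive fractions. POLD2 went from 60.3% to 30.7% in CCNB1-negative cells. The sum of the 4 genes stood at 40.2% of the untreated level in CCNB1-negative cells, and at 56.3% in CCNB1-positive cells. Within polymerase epsilon, POLE3 averaged 40.3% in untreated and 34.0% in selumetinib CCNB1-negative cells, and 48.9% and 31.5% in the CCNB1-positive fractions. POLE averaged 12.8% and 17.3% in the former and 11.3% and 20.8% in the latter. Its sum fell to 23.1% in CCNB1-negative cells and to 47.9% in the CCNB1-positive fraction.

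**Figure D4:**
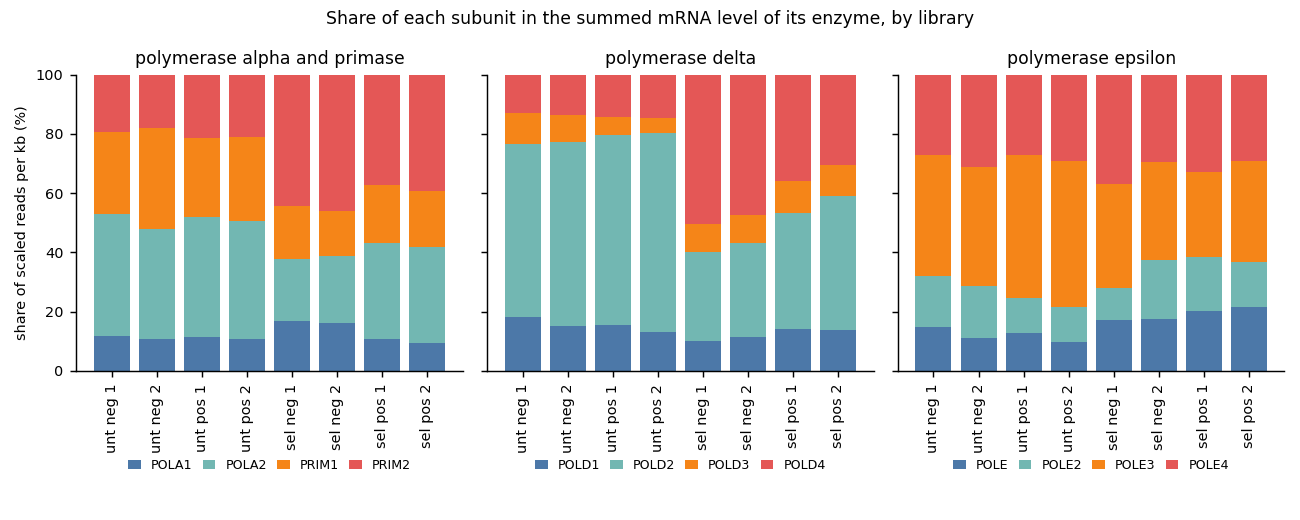
Share (%, vertical axis) of each subunit in the summed scaled reads per kilobase of its enzyme, with 1 bar a library and the 4 subunits stacked. PRIM2 and POLD4 take a larger share in all 4 selumetinib libraries than in the 4 untreated ones, and POLE3 a smaller one, from 48.9% to 31.5% on average in CCNB1-positive cells.

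POLD4 (ENSG00000175482) had log2 values of 10.06 and 10.24 in untreated CCNB1-negative, 10.10 and 10.29 in untreated CCNB1-positive, 10.82 and 10.61 in selumetinib CCNB1-negative, and 10.60 and 10.51 in selumetinib CCNB1-positive libraries. All selumetinib libraries were above all untreated ones. In CCNB1-negative cells it rose by 0.56 ± 0.15 (SE; limma, adjusted p = 0.00384), and in the CCNB1-positive fraction by 0.36 ± 0.15 (adjusted p = 0.0493). POLE4, the histone-fold partner of POLE3, moved with the set: the decrease in CCNB1-negative cells was 1.94 ± 0.18 on the log2 scale (limma, adjusted p = 3.56e-07), against 0.93 ± 0.18 in the CCNB1-positive fraction (adjusted p = 0.000432).

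Of 24 direct partners of the polymerases at the fork, all fell in CCNB1-negative cells, as did 35.8% of all genes, with a median of -2.57. The largest decreases were those of GINS2, a part of the replicative helicase, by 4.17 ± 0.17 (SE), and of PCNA, the sliding clamp, by 4.11 ± 0.17. The smallest were those of RFC1, the large subunit of the clamp loader, by 1.26 ± 0.18, and of POLDIP3, a partner of polymerase delta, by 0.90 ± 0.17 (limma, adjusted p of 0.000296 or less for all 24). In CCNB1-positive cells 20 of the 24 fell, against 27.3% of all genes, with a median of -0.92. The interaction was positive and past the threshold for 20, against 4.99% of all genes. Between fractions, 8 were lower in CCNB1-positive cells without the drug (1.51% of all genes) and 21 higher with it (13.8%).

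The 14 other DNA polymerases and partners, which act in repair, in bypass of lesions and in mitochondria, were divided. In CCNB1-negative cells 7 rose and 6 fell, with a median of 0.32, where 38.2% of all genes rose and 35.8% fell. In CCNB1-positive cells 6 rose and 2 fell, where 38% of all genes rose and 27.3% fell. The counts of rises in both fractions, and of falls in CCNB1-negative cells, were thus near the shares of all genes. POLQ, the polymerase of end joining with short homologies, fell by 2.45 ± 0.21 (SE; limma, adjusted p = 2.10e-07) in the CCNB1-negative fraction, and its change in CCNB1-positive cells was 0.30 (adjusted p = 0.222). MAD2L2, a subunit of polymerase zeta, fell by 1.47 ± 0.18 in CCNB1-negative cells (limma, adjusted p = 4.77e-06), whereas REV3L, the catalytic subunit of the same enzyme, rose by 1.50 ± 0.17 (adjusted p = 2.05e-06). POLI, a lesion bypass polymerase, rose by 0.92 ± 0.22 (limma, adjusted p = 0.00170). Between the fractions of untreated cells 0 genes of this list passed by limma or by limma-voom, and 2 and 1 had an unadjusted p under 0.05. By limma 2.87% of all genes passed in either direction there, so 0 of 14 is near the share of all genes.

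Patterns over the 4 group means, each centred on the gene's own mean, were compared by the root mean square difference on the log2 scale. POLD2 and POLE3 were the closest pair of members, at 0.087, followed by POLA2 and PRIM1 at 0.16 and POLD1 and POLE2 at 0.19. The nearest member to POLE was POLD1, at 0.29, and POLA1 and POLD3 were nearest to each other, at 0.27. PRIM2 was the farthest from its nearest member, POLD3, at 0.31. For PRIM1 and PRIM2 the nearest genes were sought among all genes tested, except those named by a clone, accession or LINC identifier. Closest to PRIM1, with POLA2 the member that fell most in CCNB1-negative cells, were TUSC1 at 0.053, WDHD1 at 0.076 and UHRF1 at 0.11. WDHD1 couples polymerase alpha to the helicase and is 1 of the 24 fork partners. Closest to PRIM2, which fell least, were SC5D at 0.024, PHOSPHO2 at 0.026 and PIM1 at 0.030.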

How the data were processed

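The tools named by the authors are Trim Galore 0.5.0 for trimming, HISAT2 2.1.0 for mapping to GRCh38, and SeqMonk, from which they deposited log2 values normalised to the total read count. A gene without a read stands at log2 of 0.9 reads plus the constant of its library. The annotation release and strand setting are not given in the sources used here. The authors' own test was DESeq2. All 8 value columns were used. The values gave whole reads for 100% of genes with up to 1000 reads, within 0.01 reads, and gave the depth of 12696860 to 23916160 reads. They carry no molecular identifiers, and the Poisson interval given for the reads of PRIM1 covers counting error only. The intervals of log2 changes are those of the limma fit and rest on the spread between libraries.

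The 14219 genes at or above a mean of 1 RPM (mean log2 value 4.58), all 10 members included, were fitted with limma 3.58.1 (mean-variance trend, 1 coefficient a group) in R 4.3.3. Adjusted p-values are Benjamini-Hochberg over all of them. The 5 comparisons were the response in each fraction, the difference of fractions in each treatment and the interaction. Reads of 14850 genes were simulated with independent noise, and changes were planted in 162 of them for the response in CCNB1-negative cells. The fit found 85.5% of 2-fold and 100% of 4-fold changes, with 13 false calls among 164, and made 0 calls where none were planted. In the data, 74.1% of genes were called in this comparison, and deviations of same-numbered fractions correlated. The simulation held neither, so its rates need not hold for the data. The members and lists were chosen with earlier results of these data known. Named are all members, POLD4 and POLE4, the 2 lowest and 2 highest fork partners and other polymerases in CCNB1-negative cells, and the nearest genes by pattern. Exon lengths are those of MANE Select transcripts in GENCODE 44. Replicates differed beyond sampling noise (chi-square per gene of 17.3 to 33.5). Alternatives were an adjusted p of 0.01, a 2-fold requirement, no filter or 10 RPM, quantile or median scaling, a pseudocount of 0.1 RPM, limma-voom, replicate blocks, only the groups compared, and each library left out. Python 3.11.15, pandas 2.3.3, scipy 1.17.1 and matplotlib 3.10.9 were used.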

Additional observations from a re-analysis of the deposited data

Results flagged for a closer look

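By the interaction term of limma, 7 of the 10 genes responded differently to selumetinib in the 2 fractions, where 4.99% of all genes passed in this direction, each with a less negative or more positive change in CCNB1-positive cells. The difference of the log2 changes was 1.90 for POLA2, 1.73 for PRIM1, 0.95 for PRIM2, 1.07 for POLD1, 1.47 for POLD3, 1.50 for POLE and 1.81 for POLE2. The adjusted p lay between 0.000134 for POLA2 and 0.0459 for PRIM2. The PRIM2 call was lost with quantile normalization, median scaling, limma-voom or no filter on low values, and without any 1 library other than selumetinib CCNB1-negative replicate 2 and selumetinib CCNB1-positive replicate 1. This contrast is the same whether groups are read from the titles or from the descriptions of the libraries.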

How the results depend on the processing

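Over the alternatives in filter, scaling, model and libraries, 768 of 820 values of single members kept their direction and their side of the threshold. The 5 that turned were never past it: POLE in CCNB1-positive cells (0.0012 with quantile normalization, and from -0.34 to 0.011 with each library left out) and POLD2 between untreated fractions (-0.0063 with quantile normalization, and from -0.071 to 0.16 with each library left out). At an adjusted p of 0.01 the members passing were 10 and 6 for the responses in CCNB1-negative and CCNB1-positive cells, 1 and 7 between untreated and treated fractions, and 6 for the interaction. The share of all genes passing at this threshold was not counted. With a 2-fold requirement, 3 genes fell in CCNB1-positive cells, 0 differed between untreated fractions and 4 between treated ones. Between untreated fractions 3 genes were lower with limma-voom and 2 with only the compared groups fitted. Of the 14219 genes tested, 198 and 129 were lower in these fits. Leaving out each library leaves 1 library in a group, so only log2 changes are given here. Those of the members ran from -2.92 (PRIM1) to -0.42 (PRIM2) with selumetinib in CCNB1-negative cells. In CCNB1-positive cells they ran from -1.90 (POLE3) to 0.57 (PRIM2). Between untreated fractions the range was -0.95 (POLD3) to 0.16 (POLE3), and between treated ones 0.0042 (POLA1) to 1.58 (POLA2). The interaction ranged from 0.46 (POLE3) to 2.19 (POLE2). The causes were not tested.

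Replicate numbers do not say that libraries are paired, and there are only 2 of them. The deviations of same-numbered fractions correlated across genes at 0.35 in untreated and 0.43 in treated cells. Between untreated and treated groups the same correlation was -0.018 for the CCNB1-negative and -0.017 for the CCNB1-positive fraction. For unlike fractions of the 2 treatments it was -0.088 and 0.082. With the number as a replicate block, 2 genes differed between untreated fractions (1.92% of all genes were lower), and with the pair of fractions as the block 8 did (8.78%), all lower in CCNB1-positive cells. The interaction was positive and passed for 8 and 10 genes under these blocks (5.72% and 19.3% of all genes).

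Scaling moved the division of all genes called: with quantile normalization the higher share went from 58.1% to 47.1% in CCNB1-positive cells, from 47.5% to 65.7% between untreated fractions, from 63.6% to 46.5% between treated ones, and from 93.5% to 69.2% for the interaction. Depth limits PRIM1 and POLE2 most, with 61 and 87 reads in their lowest libraries.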
